A study of Homo sapiens with 12 samples.

Results

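Ferroptosis is a form of cell death driven by iron-dependent peroxidation of membrane lipids, and 10 genes of its defence and execution were followed here: GPX4, AIFM2, DHODH, GCH1, ACSL4, ACSL3, ALOX5, SAT1, CISD1 and VDAC2. They were taken as a list of names, chosen with earlier results of these data known, and are 10 of the 63677 genes counted. All 10 passed the filter on low counts that left 18674 genes for testing. The data are RNA-seq read counts from 12 libraries of the mantle cell lymphoma (MCL) lines JEKO1, JVM2 and MAVER1, 3 established lines. Each of them gave 1 library per treatment after 48 h: an untreated control, ironomycin, ibrutinib, or both drugs together. Ironomycin was given at 50 nM to JEKO1 and at 250 nM to JVM2 and MAVER1. Ibrutinib was given at 0.5 μM to JEKO1, 1.5 μM to JVM2 and 6.25 μM to MAVER1. Ironomycin holds iron in the lysosome, and ibrutinib inhibits the kinase BTK of the B-cell receptor pathway. Dose and line changed together, so a difference between lines cannot be told apart from a difference between doses, and each line is a single established culture with no repeat of a treatment.

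Cells meet lipid peroxidation in layers. GPX4 reduces phospholipid hydroperoxides with glutathione, AIFM2 (the protein FSP1) and DHODH keep quinones reduced at the plasma membrane and in mitochondria, and GCH1 starts the synthesis of the antioxidant tetrahydrobiopterin. ACSL4 activates the polyunsaturated fatty acids that are prone to oxidation and ACSL3 the monounsaturated ones that are not. ALOX5 oxidises arachidonic acid, SAT1 opens polyamine breakdown, CISD1 is an iron-sulfur protein of the outer mitochondrial membrane, and VDAC2 is a channel of that membrane.

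The libraries held 35448523 to 38630809 counted reads. B-cell markers were present in every library, with 237 to 500 CPM of CD79A (CPM being reads relative to the library total as scaled by the TMM method), whereas SOX11, a marker of most MCL, was at 0 CPM in all JVM2 libraries and at 55.3 to 181 CPM in JEKO1 and MAVER1. The summed level of 11 markers of T cells, monocytes, NK cells, epithelium, fibroblasts and red cells was 5.07 to 56.7 CPM, against 1219 to 2104 CPM for 6 B-cell markers. The B-cell sum was 1811 to 1963 CPM in the controls, 1219 to 1808 CPM with ironomycin, 1788 to 2104 CPM with ibrutinib and 1304 to 1858 CPM with both drugs, and the part of this shift in the results was not tested. Among the other markers HBB, of red cells, was at 0 reads in every library. COL1A1, of fibroblasts, had 21.9 to 32.9 CPM in MAVER1 and 9.53 to 12.2 CPM in JVM2, and EPCAM, of epithelium, 7.79 to 14.2 CPM in MAVER1. The B-cell marker CD22 had 9.18 to 26.8 CPM in JEKO1 and 18 to 58.6 CPM in MAVER1, against 310 to 358 CPM in JVM2. Treatments were compared with edgeR's quasi-likelihood test, with treatment and cell line as terms. A gene was called when its p, adjusted over all 18674 genes by the Benjamini-Hochberg method, was under 0.05. Fold changes and their standard errors (SE) are on the log2 scale, with n = 3 lines per treatment. Differences in level between lines were fitted, so the p-values of the treatment comparisons measure how unevenly a change ran over these 3 lines. That spread was estimated over all 12 libraries. No p-value here measures the spread between repeats of a treatment within a line. In bulk RNA, fewer cells in a given state and less RNA per cell cannot be told apart.

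Per kilobase of exon, VDAC2 and GPX4 were the most abundant of the 10 transcripts, with medians over the 12 libraries of 73.1 and 65 CPM per kilobase. ALOX5 followed with a median of 33 and SAT1 with 23.1 CPM per kilobase. ACSL3 had 12.5, AIFM2 10.8 and ACSL4 9.86 CPM per kilobase. CISD1 had 6.95, GCH1 6.18 and DHODH 3.37 CPM per kilobase. The ranges of all neighbours in this order overlapped over the libraries, so the order of any adjacent pair does not hold in every library. The fewest reads were those of ALOX5 in JVM2, at 81 to 105 per library.

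**Figure D1:**
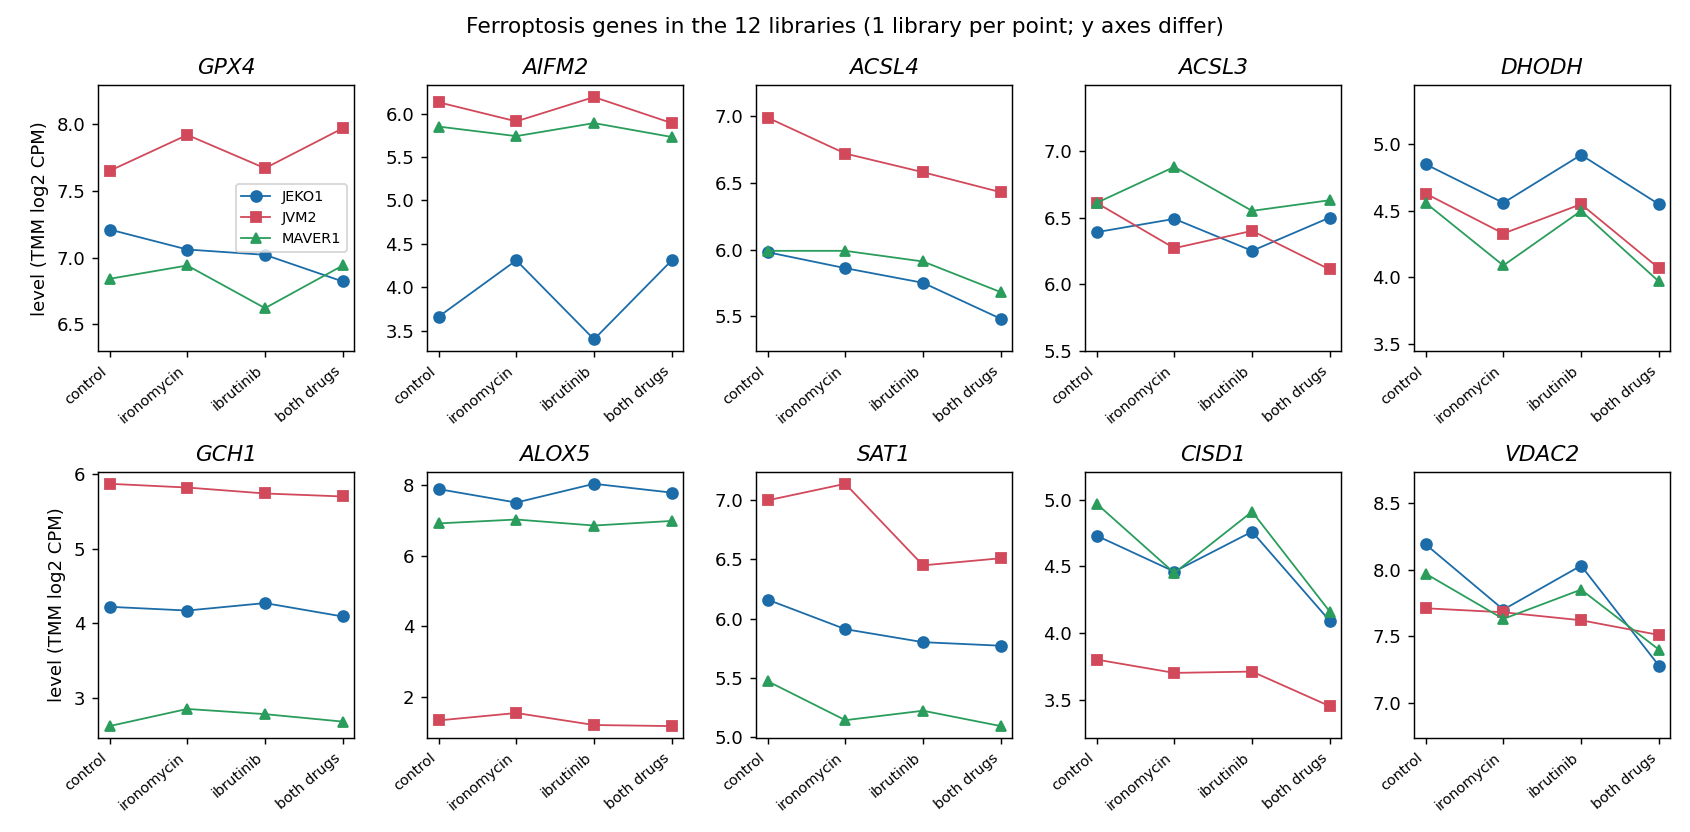
Level of each gene (y axis, TMM log2 CPM, scales differ between panels) in the 4 treatments (x axis), with 1 point per library and 1 line per cell line. ALOX5, GCH1 and AIFM2 differ most between the lines. CISD1, VDAC2, DHODH, ACSL4 and SAT1 are lower with both drugs than in the control in each of the 3 lines.

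With both drugs, 5 of the 10 genes fell against control (CISD1, VDAC2, DHODH, ACSL4 and SAT1) and none rose. In the same comparison 28.2% of all genes tested were called and 14% were called lower. The falls took in both genes of the outer mitochondrial membrane, the mitochondrial quinone enzyme, the activator of polyunsaturated fatty acids and the polyamine enzyme, while the peroxidase GPX4 did not pass the test. The median log2 fold change of the 10 genes was -0.27, beside 0.05 for all genes tested. No change reached 1 in size on the log2 scale, beside 6.29% of all genes called at that size. With DESeq2 in place of edgeR, and also without JVM2, the same 5 genes were called, beside 33.6% and 33.9% of all genes. Without JEKO1 or without MAVER1 none of the 10 was called, and the genes called in the whole table went from 5268 to 37 and 22. The log2 fold changes of the 5 genes were then -0.39 (VDAC2) to -0.59 (CISD1) without JEKO1 and -0.43 (DHODH) to -0.55 (VDAC2) without MAVER1. Without the term for cell line, 0 of the 10 and 0 of all genes were called by edgeR, with log2 fold changes of the 5 genes from -0.44 (SAT1) to -0.65 (CISD1). DESeq2 with the term called 6282 genes.

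CISD1 (mitoNEET), which carries an iron-sulfur cluster on the mitochondrial surface, had the largest fall. It went from 26.5 CPM in the control to 17 CPM with both drugs in JEKO1, from 13.9 to 10.9 CPM in JVM2 and from 31.4 to 17.8 CPM in MAVER1. The level was lower in 3 of 3 lines, but the ranges of the groups overlapped, as the JVM2 control lay below the JEKO1 and MAVER1 libraries with both drugs. The fitted log2 fold change was -0.61 (SE 0.11, adjusted p = 0.00536 by edgeR), that is 0.657 times the control. With ironomycin alone CISD1 stood at 22, 12.9 and 21.9 CPM in JEKO1, JVM2 and MAVER1, and the log2 fold change of -0.30 was not called (SE 0.11, adjusted p = 0.156). With ibrutinib alone it stood at 27.1, 13.1 and 30 CPM, within 0.09 of the control on the log2 scale in each line.

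VDAC2, the channel isoform that also binds the apoptosis effector BAK, had 291, 209 and 251 CPM in the controls of JEKO1, JVM2 and MAVER1. With both drugs it had 156, 182 and 169 CPM, so that every library with both drugs lay below every control library. The log2 fold change was -0.56 (SE 0.12, adjusted p = 0.00933 by edgeR). With ironomycin alone the libraries had 207, 206 and 199 CPM, all within a narrow range, and the change of -0.29 was not called (adjusted p = 0.197). With ibrutinib alone they had 262, 197 and 231 CPM (log2 fold change -0.12, adjusted p = 1). Its 5 named pseudogenes together held at most 975 reads in a library against at least 6399 for VDAC2, and counting may split reads between such copies.

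DHODH, which makes pyrimidines at the inner mitochondrial membrane and passes electrons to ubiquinone, was lower than control in 3 of 3 lines with ironomycin, alone or with ibrutinib. Its controls had 28.9, 24.6 and 23.6 CPM in JEKO1, JVM2 and MAVER1, and its libraries with both drugs 23.4, 16.8 and 15.6 CPM. The highest value with both drugs lay just under the lowest control. The log2 fold change was -0.48 (SE 0.09, adjusted p = 0.00517 by edgeR). With ironomycin alone it had 23.5, 20 and 17 CPM, with log2 ratios to control of -0.29, -0.30 and -0.47, and the fitted value of -0.36 was not called (SE 0.09, adjusted p = 0.0771). DESeq2 called this value (adjusted p = 0.000831) and that of CISD1 (adjusted p = 0.0434). With ibrutinib alone DHODH had 30.2, 23.3 and 22.6 CPM, a log2 fold change of -0.03 with a 95% interval of -0.22 to 0.17.

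The promoters of these 3 genes are shown because the genes fell together with both drugs against control and against ibrutinib. Each is the 250 bases before the RefSeq start, in GRCh38.p14 and on the gene's strand: CISD1 at chr10:58268912-58269161, VDAC2 at chr10:75209920-75210169 and DHODH at chr16:72008494-72008743, all on the plus strand. Capitals mark CCACG on either strand, the closing letters of the ER stress element.
CISD1: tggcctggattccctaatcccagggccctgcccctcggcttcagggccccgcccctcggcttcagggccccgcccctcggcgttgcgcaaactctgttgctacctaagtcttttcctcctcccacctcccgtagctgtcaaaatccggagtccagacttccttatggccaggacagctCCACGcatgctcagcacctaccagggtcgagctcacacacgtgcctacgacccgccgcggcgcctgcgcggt
VDAC2: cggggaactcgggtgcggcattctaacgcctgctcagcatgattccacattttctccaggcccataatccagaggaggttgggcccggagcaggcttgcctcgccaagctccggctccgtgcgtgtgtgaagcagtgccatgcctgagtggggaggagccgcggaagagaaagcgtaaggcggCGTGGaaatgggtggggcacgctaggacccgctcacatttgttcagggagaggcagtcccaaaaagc
DHODH: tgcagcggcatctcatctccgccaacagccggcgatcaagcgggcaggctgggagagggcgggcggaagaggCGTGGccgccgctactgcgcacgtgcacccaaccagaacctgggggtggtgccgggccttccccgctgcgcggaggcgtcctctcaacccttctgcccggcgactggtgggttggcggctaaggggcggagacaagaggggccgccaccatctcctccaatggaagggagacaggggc
The whole ER stress element was in none of the 8 member promoters matched by symbol in the RefSeq table and in 0.0806% of 27305 promoters of the same length. CCACG alone was in 5 of the 8 (CISD1, VDAC2, DHODH, GPX4 and ACSL4) and in 33.3% of all. The ATF4 element TGATGNAAN, in 3.18% of all promoters, and the sterol element TCACNCCAC, in 0.875%, were in none of the 8. These are matches of letters only. GC content was 65.2% for CISD1, 61.2% for VDAC2 and 70% for DHODH, with a median of 58% over all promoters.

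Of the fatty acid activating enzymes, ACSL4 was called with both drugs and ACSL3 was not, and the difference between them was not tested. ACSL4, whose product makes membranes sensitive to ferroptosis, had 63, 127 and 63.5 CPM in the controls of JEKO1, JVM2 and MAVER1 and 44.6, 86.2 and 51.3 CPM with both drugs. It was lower in 3 of 3 lines, with a log2 fold change of -0.46 (SE 0.08, adjusted p = 0.00432 by edgeR), the lowest adjusted p of the 10 genes. Each drug alone gave a smaller value. With ironomycin it had 58.1, 105 and 63.7 CPM (log2 fold change -0.13, adjusted p = 0.359), and with ibrutinib 53.7, 95.8 and 60 CPM (-0.24, unadjusted p = 0.0118 from edgeR, adjusted p = 1). ACSL3, which feeds monounsaturated fatty acids into membranes and lipid droplets, had 83.8, 97.4 and 97.9 CPM in the controls and 90.5, 69.2 and 99.1 CPM with both drugs. It was lower in JVM2 and at or above control in the other lines, and its log2 fold change of -0.12 had a 95% interval of -0.40 to 0.15.

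SAT1, the acetyltransferase that starts the breakdown of spermidine and spermine, fell with both drugs by 0.42 on the log2 scale (SE 0.12, adjusted p = 0.0288 by edgeR). The controls had 71.5, 128 and 44.4 CPM in JEKO1, JVM2 and MAVER1, and the libraries with both drugs 54.4, 90.8 and 33.9 CPM. The log2 ratios of -0.40, -0.49 and -0.39 were alike in the 3 lines. With ibrutinib alone SAT1 had 55.6, 87.1 and 37.1 CPM, almost the levels reached with both drugs, and a log2 fold change of -0.39 (unadjusted p = 0.0103 from edgeR, adjusted p = 1). With ironomycin alone it had 59.9, 141 and 35.2 CPM, higher than control in JVM2 and lower in the other lines. Against ibrutinib, both drugs changed SAT1 by -0.04 with a 95% interval of -0.31 to 0.24. With library totals in place of TMM scaling, which moved the median of all genes by 0.12 for both drugs against control, the change of SAT1 was -0.30 and was not called (adjusted p = 0.0979).

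**Figure D2:**
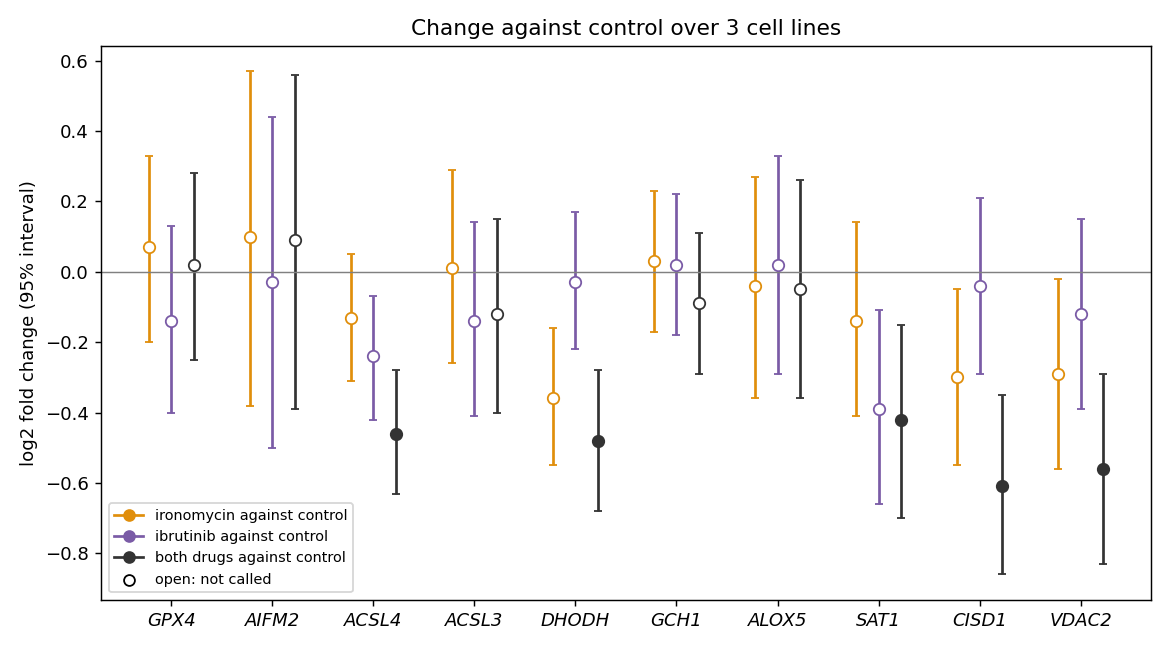
Log2 fold change against control (y axis) of each gene for ironomycin, ibrutinib and both drugs over the 3 lines, with bars for the 95% interval from edgeR's fit. Filled points were called, and these are ACSL4, DHODH, SAT1, CISD1 and VDAC2 with both drugs.

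The other 5 genes were not called with both drugs. GPX4 had 148, 201 and 114 CPM in the controls of JEKO1, JVM2 and MAVER1 and 113, 252 and 123 CPM with both drugs, lower in JEKO1 and higher in JVM2 and MAVER1. Its log2 fold change was 0.02 with a 95% interval of -0.25 to 0.28, and the lines moved in opposite directions. With ironomycin alone GPX4 had 133, 241 and 123 CPM, and with ibrutinib alone 129, 203 and 98.2 CPM. GCH1, the rate-limiting enzyme of tetrahydrobiopterin synthesis, had 18.6, 58.6 and 6.1 CPM in the controls and 17, 52 and 6.36 CPM with both drugs (log2 fold change -0.09, 95% interval -0.29 to 0.11). Its range over the 4 treatments within a line was narrow, from 17 to 19.3 CPM in JEKO1, 52 to 58.6 CPM in JVM2 and 6.1 to 7.16 CPM in MAVER1. ALOX5 had 235, 2.48 and 120 CPM in the controls and 219, 2.21 and 126 CPM with both drugs (log2 fold change -0.05, 95% interval -0.36 to 0.26). An antisense gene that overlaps ALOX5 held at most 297 reads, and the strand setting of the counting is not given in the sources used here.

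With ironomycin alone against control, 0 of the 10 genes were called by edgeR, where 0.584% of all genes tested were, and 3 had an unadjusted p under 0.05 (DHODH, CISD1 and VDAC2), beside 22.5% of all genes. DESeq2 called 2 of them, DHODH and CISD1, and 12.6% of all genes. All 3 were lower in 3 of 3 lines, but VDAC2 in JVM2 had a log2 ratio of only -0.02. There its reads before scaling went from 7329 in the control to 7494 with ironomycin. Without JVM2, edgeR called VDAC2 (-0.44, adjusted p = 0.0444). With ibrutinib alone 0 of the 10 and 0% of all genes were called by edgeR, and 2 members (ACSL4 and SAT1) had an unadjusted p under 0.05, beside 3.64% of all genes, both lower in 3 of 3 lines. DESeq2 called 0 of the 10 with ibrutinib and 26 genes in all. Both single-drug comparisons and the one with both drugs share the control libraries.

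When ironomycin was added to ibrutinib, 3 of the 10 genes fell, DHODH, CISD1 and VDAC2, and none rose, beside 23.3% of all genes called and 11.5% called lower. None of the 3 reached 1 in size on the log2 scale, beside 4.66% of all genes called at that size. This comparison does not set the control group against another, but it shares the libraries with both drugs with the comparison against control. Its spread was estimated over all 12 libraries, controls included. DHODH changed by -0.46 (adjusted p = 0.00832), CISD1 by -0.57 (adjusted p = 0.00902) and VDAC2 by -0.43 (adjusted p = 0.0291, all by edgeR). The log2 ratios of CISD1 were -0.67 in JEKO1, -0.26 in JVM2 and -0.75 in MAVER1. The calls were kept without JVM2, where 28.9% of all genes were called. None of the 3 was called without JEKO1 or without MAVER1, where 0.00559% and 0.0318% of all genes were. There DHODH had -0.51 and -0.42, CISD1 -0.51 and -0.47, and VDAC2 -0.28 and -0.43. Scaled by library totals, VDAC2 had -0.33 and was not called (adjusted p = 0.0502 by edgeR). DESeq2 called these 3 genes and also ACSL4, beside 29.9% of all genes. By edgeR ACSL4 had -0.22 here and was not called (adjusted p = 0.0743). When ibrutinib was added to ironomycin, 0 of the 10 and 0% of all genes were called by edgeR. Here 3 members, beside 10.5% of all genes, had an unadjusted p under 0.05: ACSL4 (-0.33), CISD1 (-0.30) and SAT1 (-0.29). DESeq2 called 1 member, ACSL4 (adjusted p = 0.00178), and 0.873% of all genes. The log2 ratios of ACSL4 in this comparison were -0.38, -0.29 and -0.31 in JEKO1, JVM2 and MAVER1. On the log2 scale the change with both drugs departed from the sum of the single changes by -0.26 for CISD1 and by 0.14 or less in size for the other 9 genes. No gene, member or not, was called for such a departure by edgeR or DESeq2 (0%). At an unadjusted p under 0.05 edgeR had 367 genes (1.97%) and 0 members.

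**Figure D3:**
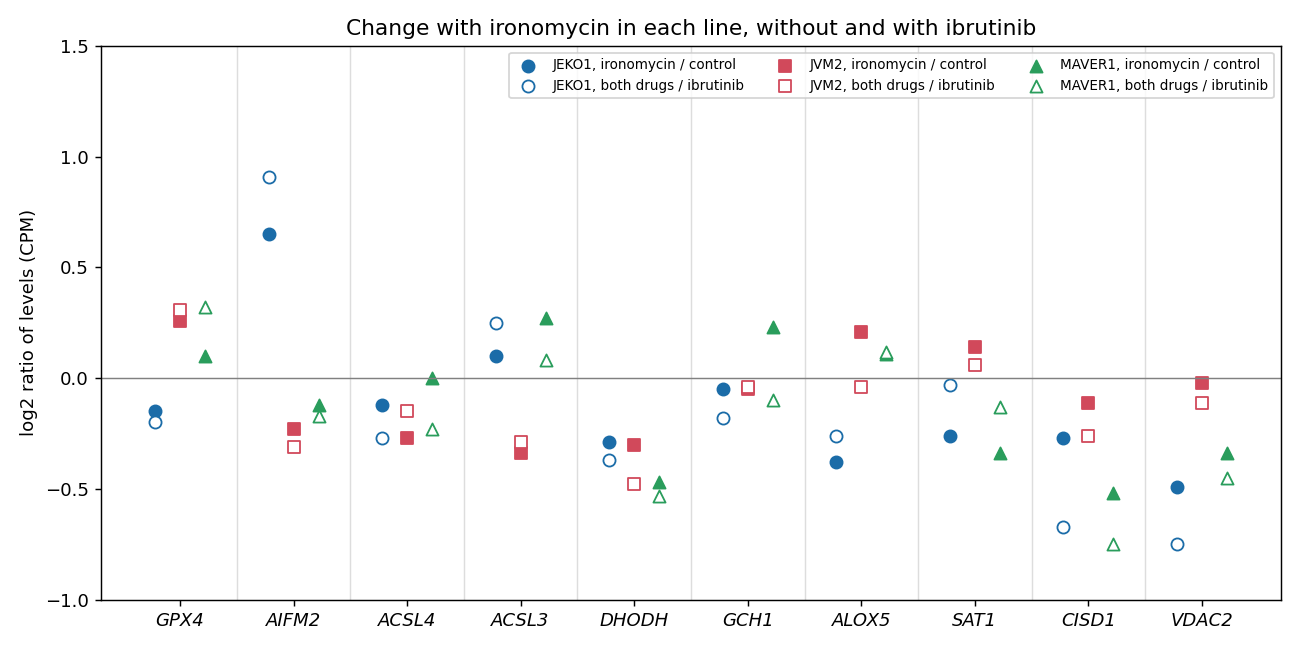
Log2 ratio of CPM with and without ironomycin (y axis) for each gene and cell line, against control (filled) and against ibrutinib (open), with 1 library per treatment and line. AIFM2 is above 0 in JEKO1 only, at 0.65 and 0.91, ACSL3 is below 0 in JVM2 only, and VDAC2 is closest to 0 in JVM2.

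The change with ironomycin differed between the cell lines for 3 of the 10 genes, AIFM2, ACSL3 and VDAC2, where 9.37% of all genes tested differed. The test used all 12 libraries and 2 coefficients for the lines, so each line's change rests on a pair without and a pair with ibrutinib. AIFM2, the ubiquinone reductase FSP1 that works beside GPX4, had the clearest difference (adjusted p = 0.00213 by edgeR). In JEKO1 it had 12.6 CPM in the control and 10.5 CPM with ibrutinib, and 19.8 CPM both with ironomycin and with both drugs. In JVM2 it had 70.2 and 73 CPM without ironomycin and 59.9 and 59.1 CPM with it. In MAVER1 it had 57.7 and 59.3 CPM without and 53.2 and 52.9 CPM with it. The 2 JEKO1 libraries with ironomycin were thus above the 2 without, and in the other lines they were below. Taken minus the JEKO1 change, the JVM2 change was -1.04 and the MAVER1 change -0.92 on the log2 scale. The difference was called without JVM2 (adjusted p = 0.015) and without MAVER1 (0.0231), and not between JVM2 and MAVER1 alone (0.558). Even at its highest, JEKO1 held less AIFM2 than any library of the other lines. H2AFY2, on the opposite strand of the AIFM2 locus, had at most 27 reads in any library against at least 419 for AIFM2.

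The AIFM2 promoter is shown as the only one of the 8 matched member promoters that held the antioxidant response element TGACNNNGC, the site of the factor NRF2. It is the 250 bases at chr10:70132826-70133075 of GRCh38.p14, read on the minus strand, and capitals mark the match, which lies on the reverse strand with its first base at position -22 from the RefSeq start.
AIFM2: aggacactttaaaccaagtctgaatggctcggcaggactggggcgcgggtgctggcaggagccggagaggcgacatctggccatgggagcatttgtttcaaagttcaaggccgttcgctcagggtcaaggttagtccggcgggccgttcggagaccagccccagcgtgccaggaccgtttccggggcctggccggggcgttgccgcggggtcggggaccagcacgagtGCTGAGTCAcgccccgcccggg
The element was in 1 of 8 member promoters and in 11% of all 27305. The match is a description of the letters and was not tested for use.

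ACSL3 differed between lines with an adjusted p of 0.0312 by edgeR. In JVM2 it had 97.4 and 84.7 CPM without ironomycin and 77.2 and 69.2 CPM with it. In JEKO1 it had 83.8 and 76.2 CPM without and 90.1 and 90.5 CPM with it, and in MAVER1 97.9 and 93.7 CPM without and 118 and 99.1 CPM with it. Only in JVM2 were the libraries with ironomycin the lower ones, and by edgeR the difference was not called without JVM2 (adjusted p = 1) or without MAVER1 (0.145) and was called without JEKO1 (0.0211). VDAC2 differed with an adjusted p of 0.0317, and relative to JEKO1 its change was higher by 0.55 in JVM2 and by 0.22 in MAVER1. Against ibrutinib, its log2 ratio with both drugs was -0.75 for JEKO1, -0.11 for JVM2 and -0.45 for MAVER1. No pair of lines alone gave a call for VDAC2 (adjusted p = 0.0547 to 0.321). GPX4 was at the edge, with an adjusted p of 0.0798 from edgeR and a call by DESeq2, and its change in JVM2 and MAVER1 was above that in JEKO1 by 0.46 and 0.38. For the change with ibrutinib, 0 of the 10 genes and 0% of all genes tested differed between lines by edgeR, with 0 members and 2.5% of all genes at an unadjusted p under 0.05 and 0 members and 45 genes (0.241%) called by DESeq2.

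The lines themselves differed in 9 of the 10 genes, all but VDAC2, beside 90% of all genes tested. The 4 libraries of a line are 4 treatments of 1 culture line, so these tests compare these lines and no others. Between JVM2 and JEKO1 8 of the 10 were called (78.3% of all genes), between MAVER1 and JEKO1 5 (66.4%) and between MAVER1 and JVM2 7 (71.2%). ALOX5, the lipoxygenase of leukotriene synthesis, spanned the widest range, with a mean of 7.80 ± 0.22 log2 CPM in JEKO1, 6.94 ± 0.07 in MAVER1 and 1.32 ± 0.17 in JVM2 (SD, n = 4 libraries). JVM2 minus JEKO1 was -6.51 on the log2 scale (adjusted p = 3.8e-11 from edgeR). GCH1 ran in another order, with 5.78 ± 0.08 in JVM2, 4.19 ± 0.08 in JEKO1 and 2.73 ± 0.10 in MAVER1, and all 3 pairs were called. AIFM2 was at 6.03 ± 0.16 in JVM2, 5.80 ± 0.08 in MAVER1 and 3.92 ± 0.46 in JEKO1, and the pair of JVM2 and MAVER1 was not called (adjusted p = 0.271). SAT1 was at 6.77 ± 0.35 in JVM2, 5.91 ± 0.18 in JEKO1 and 5.23 ± 0.17 in MAVER1, and all 3 pairs were called.
GPX4 and ACSL4 were highest in JVM2, at 7.80 ± 0.17 and 6.68 ± 0.24 log2 CPM, and JEKO1 and MAVER1 were not called apart for either gene (adjusted p = 0.112 and 0.126). CISD1 was lowest in JVM2, at 3.67 ± 0.15, against 4.51 ± 0.31 in JEKO1 and 4.62 ± 0.39 in MAVER1, which were not called apart (adjusted p = 0.32). DHODH was highest in JEKO1, at 4.72 ± 0.19, with 4.39 ± 0.25 in JVM2 and 4.28 ± 0.29 in MAVER1, not called apart (adjusted p = 0.216). ACSL3 was called only between MAVER1, at 6.67 ± 0.15, and JVM2, at 6.35 ± 0.21 (adjusted p = 0.0217).

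The genes that moved most like each member were sought as the highest Pearson correlations of log2 CPM, after each line's mean was taken out, over the 12 libraries and 11213 genes. These values are descriptive, since the libraries share lines and treatments. AIFM2 was most like IFIT3 (r = 0.972) and IFI44 (0.966), both interferon-induced genes, and TMEM186 (0.963). VDAC2 was most like HPRT1, a purine salvage enzyme (0.993), SLC25A3, the mitochondrial phosphate carrier (0.989), and TUBB6 (0.988). CISD1 was most like C19orf53 (0.993), the splicing protein gene SNRPE (0.991) and CLNS1A (0.990), and DHODH most like MTERF3 (0.986), PPP1R14B (0.985) and KCTD5 (0.983). ACSL4 was most like FCRL5, a B-cell surface receptor (0.950). ALOX5, ACSL3 and SAT1 had the lowest best values, 0.883 with RPS6, 0.906 with SFMBT2 and 0.918 with TM2D1. Those of GCH1 and GPX4 were 0.925 with PRKX and 0.948 with ZNF581. Among the members themselves, CISD1 correlated with VDAC2 at 0.93 and with DHODH at 0.90.

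Around the 10 genes, 94 genes of their pathways were listed in 8 groups, with earlier results of these data known, and 85 could be tested. With both drugs against control 36 were called, 13 higher and 23 lower, which is 42.4% of the 85, beside 28.2% of all genes tested. In the glutathione and selenoprotein group around GPX4, 5 of 15 genes rose and 2 fell. The rises included SLC7A11, the cystine transporter that feeds glutathione synthesis (1.30, SE 0.30, adjusted p = 0.0112), and SECISBP2, of selenoprotein synthesis (0.32, SE 0.08, adjusted p = 0.0166). The falls were in glutathione reductase GSR (-0.50, SE 0.08, adjusted p = 0.00379) and glutathione synthetase GSS (-0.55, SE 0.12, adjusted p = 0.00918, all by edgeR). SLC7A11 rose with log2 ratios of 1.62 in JEKO1 and 2.07 in MAVER1 and had 0.15 in JVM2. The largest rise of the group was that of CHAC1 (1.61, SE 0.47, adjusted p = 0.0275 by edgeR). Its log2 ratios were 1.71, 0.34 and 3.01 in JEKO1, JVM2 and MAVER1. The median of this group was 0.16.

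In the quinone group around AIFM2 and DHODH, 1 of 15 genes rose and 6 fell, with a median of -0.15. PDSS1, which builds the ubiquinone tail, fell by 0.85 and COQ3, a ubiquinone methyltransferase, by 0.65 on the log2 scale, while COQ8A rose by 0.40 (edgeR, adjusted p = 0.0035, 0.0131 and 0.00483). UMPS, the enzyme after DHODH in pyrimidine synthesis, fell by 0.32 (adjusted p = 0.0275). In the tetrahydrobiopterin group around GCH1, 2 of 7 fell: sepiapterin reductase SPR (-0.75, adjusted p = 0.0149) and QDPR (-0.28, adjusted p = 0.0323). GCH1 itself, the enzyme before them, had -0.09 (adjusted p = 0.469).

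In the fatty acyl group around ACSL4 and ACSL3, 3 of 13 rose and 2 fell. Of the rises, MBOAT2 (0.61, adjusted p = 0.0481 from edgeR) had log2 ratios of 0.84, 0.60 and -1.52 in JEKO1, JVM2 and MAVER1. Its reads went down to 2 in a library. LPCAT3, which places activated polyunsaturated fatty acids into phospholipids downstream of ACSL4, fell by 0.52 (SE 0.09, adjusted p = 0.00383 from edgeR), with log2 ratios of -0.50, -0.64 and -0.40 in JEKO1, JVM2 and MAVER1. The desaturase FADS1 rose by 0.52 (adjusted p = 0.0375) and the phospholipase PLA2G6 by 0.83 (adjusted p = 0.00659), whereas GNPAT, of ether lipid synthesis, fell by 0.32 (adjusted p = 0.0235). In the lipid oxidation group, 2 of 7 genes fell and none rose: CYBB, the catalytic subunit of the phagocyte NADPH oxidase (-1.12, adjusted p = 0.00253), and the leukotriene hydrolase LTA4H (-0.49, adjusted p = 0.0242). CYBB was also called with ironomycin alone (-1.04, SE 0.15, adjusted p = 0.0213 from edgeR), with log2 ratios of -1.13, -0.75 and -1.20.

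The polyamine group around SAT1 had 7 of 11 genes called, 1 higher and 6 lower, with a median of -0.33. ODC1, the first enzyme of polyamine synthesis, fell by 0.93 (SE 0.11, adjusted p = 0.00191 from edgeR), AMD1 by 0.67 and the antizymes OAZ1 and OAZ2 by 0.73 and 0.47. The 1 gene that rose, SMOX, had 0.91 (adjusted p = 0.0141 from edgeR), with log2 ratios of 1.28, 0.46 and 0.92 in JEKO1, JVM2 and MAVER1. Among the mitochondrial relatives, VDAC1 fell by 0.54 (adjusted p = 0.0212) and VDAC3 by 0.31 (adjusted p = 0.0173), and CISD2 had 0.25 and was not called (adjusted p = 0.0887 by edgeR). In the iron and ferritin group, 3 of 14 rose and 1 fell. The ferritin heavy chain FTH1 rose with both drugs (0.56, SE 0.10, adjusted p = 0.00499) and with ironomycin alone (0.59, SE 0.10, adjusted p = 0.0394, both from edgeR), there in 3 of 3 lines at 0.49, 0.54 and 0.75. The autophagy gene MAP1LC3B rose by 0.69 (adjusted p = 0.00849), the iron importer SLC11A2 by 0.27 (adjusted p = 0.0276), and the iron chaperone PCBP1 fell by 0.39 (adjusted p = 0.0121).
The change with ironomycin differed between lines in 13 of the 85, or 15.3%, beside 9.37% of all genes tested, and of these 6 were in the glutathione and selenoprotein group of 15. CHAC1, SMOX and MBOAT2 aside, 28 called pathway values are named here. Without JEKO1 or without MAVER1, none of these 28 was called, and without JVM2 27 of 28 were. With library totals 23 of the 28 were called, without the filter 25, with DESeq2 28, and without the line term or with the 2 groups alone none.

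**Figure D4:**
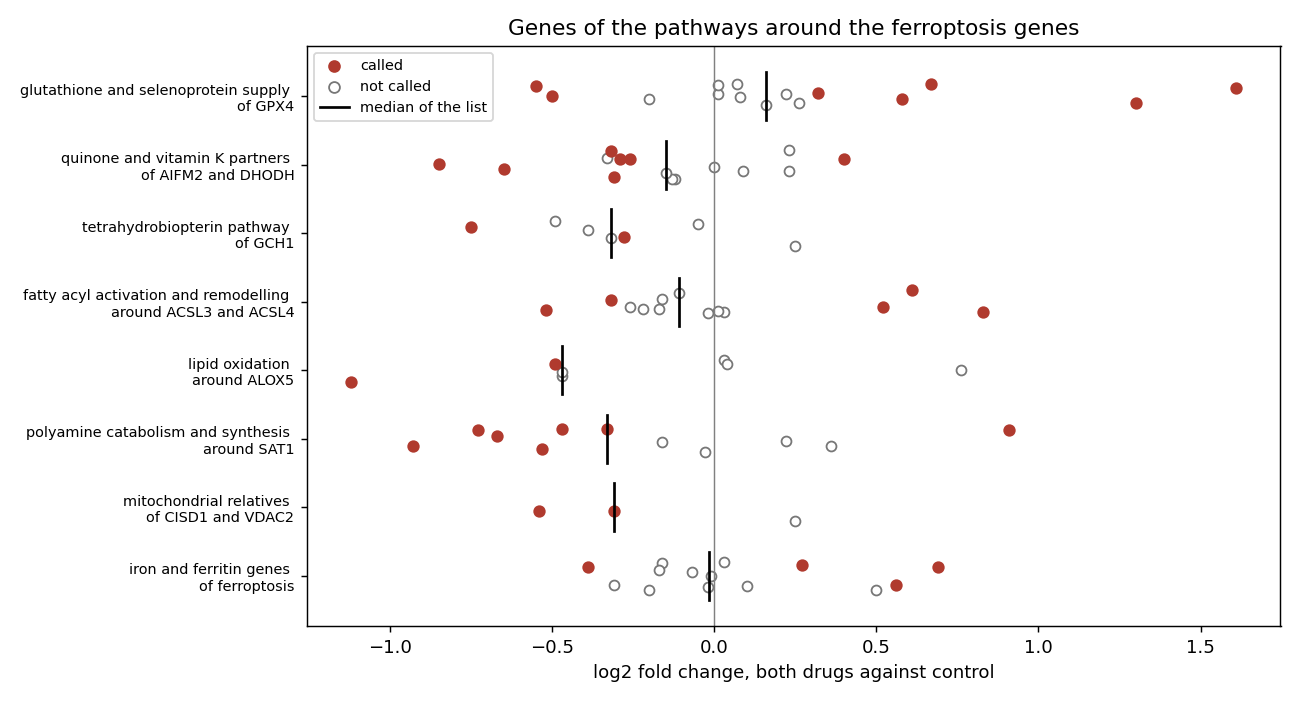
Log2 fold change with both drugs against control (x axis) of the 85 tested pathway genes in 8 groups (rows), 1 point per gene, red where called and open where not, with the median of each group as a vertical bar. The polyamine group lies mostly below 0, with a median of -0.33, and the glutathione group reaches the highest values.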

How the data were processed

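PolyA RNA of 3 MCL lines under 4 treatments was sequenced in paired ends with a stranded DNBSEQ kit. The authors deposited whole-number counts of reads per Ensembl gene, not normalised, per the labels and the values. The submitters' processing notes name STAR, DESeq2 and GRCh37, and the counting tool and strand setting are not given in the sources used here.

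Lines were taken from the labels, with 1 library per line and treatment. Genes were filtered with filterByExpr by treatment and scaled by TMM, and edgeR 4.0.16 in R 4.3.3 fitted treatment and line over all 12 libraries. The 4 libraries of a line come from the same cell line, so the line served as the block. After treatment means were taken out, libraries of the same line correlated at 0.926 to 0.976 and those of different lines at -0.705 to -0.127. Line-specific changes were tested with 2 line by drug coefficients. DESeq2 1.42.0, library totals, no filter, no block, 2 groups alone, a fold minimum and leaving out each line were alternatives. Scripts were tested on simulated data.

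The 10 genes and the pathway lists were chosen with earlier results of these data known. All 10 genes were named, with, in each list, at most 4 called genes of lowest adjusted p. CISD2, CHAC1, SMOX, MBOAT2 and the best matches of each member were shown beside them. Promoters are from RefSeq, GRCh38.p14, matched by symbol for 8 of 10 (not GCH1, ALOX5). Symbols were found for 39699 of 63677 genes.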

Additional observations from a re-analysis of the deposited data

Results flagged for a closer look

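The change with ironomycin differed between the cell lines for 3 of the 10 genes by edgeR's test of that difference. AIFM2 had an adjusted p of 0.00213, with log2 ratios to control of 0.65, -0.23 and -0.12 for JEKO1, JVM2 and MAVER1. ACSL3 had an adjusted p of 0.0312 by edgeR, with log2 ratios of 0.10, -0.34 and 0.27 in the same order. VDAC2 had an adjusted p of 0.0317 by edgeR, with log2 ratios of -0.49, -0.02 and -0.34. JEKO1 received 50 nM ironomycin and the other lines 250 nM, so line and dose cannot be told apart. Groups of 3 libraries were not tested for single samples far from the others.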

How the results depend on the processing

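The line served as the block. Without the replicate block, 0 of the 10 genes and 0 of all 18674 were called in any treatment comparison, against 5 of the 10 for both drugs against control and 3 for both drugs against ibrutinib with it. The log2 fold changes of the genes called with it were then -0.44 to -0.65 and -0.44 to -0.62. With the 2 groups alone 0 were called in each of these, and with a fold minimum of 1 on the log2 scale also 0. Leaving out each line gave 0 to 5 called members for both drugs against control, 0 to 3 for both drugs against ibrutinib, 0 to 1 for ironomycin against control, and 1 each time for the difference of the ironomycin change between lines. That gene was ACSL3 without JEKO1 (10.6% of all genes) and AIFM2 without JVM2 (3.58%) or MAVER1 (1.38%). DESeq2 called 2 for ironomycin against control (12.6% of all genes) and 1 for both drugs against ironomycin (0.873%). It called 4 for both drugs against ibrutinib (29.9%) and 4 for the difference of the ironomycin change between lines (11.6%). Over all genes, ironomycin against control had 109 calls with edgeR, 2362 with DESeq2, 211 with library totals, 497 without the filter and 1636 without JVM2, and the cause was not tested. With library totals 4 of the 10 were called for both drugs against control (29.4% of all genes) and 2 for both drugs against ibrutinib (23.4%), and all 10 differed between lines (90.8%). The sign of a log2 fold change turned 45 times, each time in a value that was not called. With library totals these were ALOX5 0.03 for ironomycin against control, ACSL3 0.0038, GCH1 0.03 and ALOX5 0.08 for both drugs against control, GPX4 0.0027, AIFM2 0.05 and ALOX5 0.05 for both drugs against ironomycin and ALOX5 0.04 and SAT1 0.07 for both drugs against ibrutinib. Without the filter these were ACSL3 -0.01 for ironomycin against control, GPX4 -0.01 for both drugs against control and ACSL3 -0.01 for both drugs against ibrutinib. With DESeq2 these were GPX4 -0.0033 for both drugs against control and ACSL3 -0.0048 for both drugs against ibrutinib. Without the replicate block these were AIFM2 -0.08 and GCH1 -0.03 for ironomycin against control, AIFM2 0.02 and GCH1 -0.07 for ibrutinib against control, AIFM2 -0.09 for both drugs against control, ALOX5 0.14 for both drugs against ironomycin and AIFM2 -0.12 for both drugs against ibrutinib. With the 2 groups alone these were GPX4 -0.01 for both drugs against control and ALOX5 0.03 for both drugs against ironomycin. For ironomycin against control the ranges without 1 line were GPX4 -0.05 to 0.18, AIFM2 -0.17 to 0.24, ACSL3 -0.12 to 0.16, GCH1 -0.05 to 0.07 and ALOX5 -0.15 to 0.15. For ibrutinib against control the ranges without 1 line were AIFM2 -0.08 to 0.05, GCH1 -0.04 to 0.10 and ALOX5 -0.08 to 0.05. For both drugs against control the ranges without 1 line were GPX4 -0.17 to 0.21, AIFM2 -0.19 to 0.22 and ACSL3 -0.24 to 0.03. For both drugs against ironomycin the ranges without 1 line were GPX4 -0.12 to 0.03 and ALOX5 -0.17 to 0.09. For both drugs against ibrutinib the ranges without 1 line were AIFM2 -0.24 to 0.30, ACSL3 -0.11 to 0.13, ALOX5 -0.18 to 0.06 and SAT1 -0.11 to 0.01. In promoters, the last 5 letters of the ER stress element were in 5 member promoters and the whole element in 0. In ALOX5 the JVM2 libraries held 81 to 105 reads.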
